A study of Mus musculus with 9 samples.

Results

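The mammalian circadian clock is a loop of transcription factors that runs in nearly every cell, fat cells included. CLOCK or its relative NPAS2 pairs with BMAL1 (gene Arntl), and the pair switches on the Per and Cry genes, whose proteins return to the nucleus and shut the pair down. A side loop of nuclear receptors (such as REV-ERB alpha and ROR alpha) sets the level of Bmal1, and factors such as DBP, TEF and the repressor BHLHE40 carry the rhythm to other genes. In adipose tissue many genes of lipid storage and release follow this rhythm, and REV-ERB alpha (gene Nr1d1) is known as a target of PPAR gamma, the nuclear receptor that drives fat cell formation.

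The 10 clock genes described here were Clock, Npas2, Per1, Per2, Per3, Cry1, Cry2, Dbp, Tef and Bhlhe40. They were found by gene symbol in the array annotation, all 10 had a probe set, and they stand among 18193 genes measured. Where several probe sets carried a gene's symbol and no other symbol, the brightest on average was used, and the rest served as a check. Values are on the log2 scale, so a difference of 1 is a 2-fold difference, and levels of different genes cannot be compared because probe sets differ in brightness.

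Total RNA came from 3T3-L1, an established mouse fibroblast line that forms fat cells under hormone treatment, in 3 groups of 3 arrays. Preadipocytes were undifferentiated cells. Both adipocyte groups had been induced for 2 days with 1 µM dexamethasone (a glucocorticoid), 10 µg/ml insulin and 0.5 mM IBMX. IBMX raises cAMP by blocking its breakdown. At day 14 after induction both groups were detached with trypsin and collagenase. They were electroporated with 2 or 3 nmol of siRNA, either a non-targeting control or one against PPAR gamma. The labels describe the siRNA and electroporation for adipocytes alone, so their effect cannot be told apart from that of differentiation in any comparison with preadipocytes. The labels give neither the time from transfection to harvest nor the hour of harvest, so each group shows the clock genes at an unstated phase, and a shift of phase cannot be told apart from a change of average level. The series calls the replicates technical, so the p-values reflect only how far these samples spread, which may be technical.

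Array medians ranged from 4.82 to 4.89 and values from 2.41 to 14.59. Correlations between arrays were 0.994 to 0.998 within groups and 0.928 to 0.973 between groups. Pparg, the target of the siRNA, stood at 8.22 ± 0.12 in preadipocytes, 12.79 ± 0.12 with control siRNA and 9.59 ± 0.05 with PPAR gamma siRNA (mean ± SD, n = 3 here and below). Of the adipocyte markers, Adipoq, Fabp4, Cidec and Slc2a4 rose in differentiation, while Lep (leptin) stood at 3.55 ± 0.20 in preadipocytes and 3.69 ± 0.12 in control siRNA adipocytes. With PPAR gamma siRNA, Adipoq, Fabp4, Cidec and Slc2a4 changed by -1.88, -1.28, -5.32 and -1.62, all called, but stayed above preadipocytes. Lep did not pass between the siRNAs. All 4 preadipocyte markers measured (Dlk1, Pdgfra, Col1a1 and Thy1) fell in differentiation and rose with PPAR gamma siRNA. The macrophage markers Adgre1, Ptprc and Itgam lay between 3.12 and 3.89 on every array, near the lowest signals, although Adgre1 rose by 0.43 ± 0.10 in differentiation. Csf1r passed in no comparison, and Cd68 went from a mean of 4.01 in preadipocytes to 5.36 with control siRNA and 6.56 with PPAR gamma siRNA, both steps called. The log2 summed signal of the 5 macrophage markers was 6.76 to 6.84 in preadipocytes, 7.16 to 7.23 with control siRNA and 7.41 to 7.98 with PPAR gamma siRNA. Of 4 endothelial markers, Kdr rose in differentiation and the other 3 did not pass; the log2 summed signal was 5.94 to 6.19, 6.24 to 6.47 and 6.26 to 6.58 in the same order. The part of such cells in the results below was not tested. In whole cultures, fewer cells of a type and less RNA per cell cannot be told apart. Signal from the 3' end of Actb exceeded that from its 5' end, a measure of RNA degradation, by 0.23 to 0.36 in preadipocytes, 0.91 to 1.3 with control siRNA and 0.54 to 1.25 with PPAR gamma siRNA, highest in control siRNA 1 and PPAR gamma siRNA 3.

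Clock genes were mostly higher in adipocytes than in preadipocytes. Cry2, which encodes a repressor of CLOCK and BMAL1, was 2.94-fold higher, Bhlhe40 2.41-fold, Per3 1.75-fold and Clock 1.71-fold. Per2, Cry1, Tef and Npas2 rose less, by 1.18-fold to 1.44-fold. In all, 8 of the 10 rose and 0 fell at an adjusted p under 0.05, where 27.1% of all genes were higher and 24.7% lower. The median log2 change of the 10 was 0.44, against 0.09 over all genes. Per1 and Dbp did not pass the test. The Actb difference described above also separated these groups, and with it as a covariate 4 of the 10 were called higher and 1, Per1, lower. With each gene's probe sets averaged, 5 were higher.

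With PPAR gamma siRNA, 4 of the 10 clock genes passed the test. Clock fell 2.32-fold and Cry2 1.82-fold relative to control siRNA, while Per1 rose 1.77-fold and Bhlhe40 1.23-fold. The count of 2 higher and 2 lower genes stands beside 19.9% higher and 16.1% lower among all genes, which is near the background. The median change was -0.05, against -0.01 over all genes. The 6 genes that did not pass the test, among them Per3, Cry1 and Tef, had changes between -0.28 and 0.15.

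Set beside preadipocytes, PPAR gamma siRNA adipocytes had most of the called clock genes higher. Bhlhe40 was 2.95-fold, Per3 1.90-fold, Cry2 1.62-fold, Cry1 1.44-fold and Tef 1.3-fold higher, and Clock was 1.35-fold lower. This gives 5 higher and 1 lower of 10, where 19.6% of all genes were higher and 16.9% lower, with a median change of 0.31 against 0.07. The 3 comparisons share arrays with each other, so their values are given side by side and not as separate evidence.

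**Figure D1:**
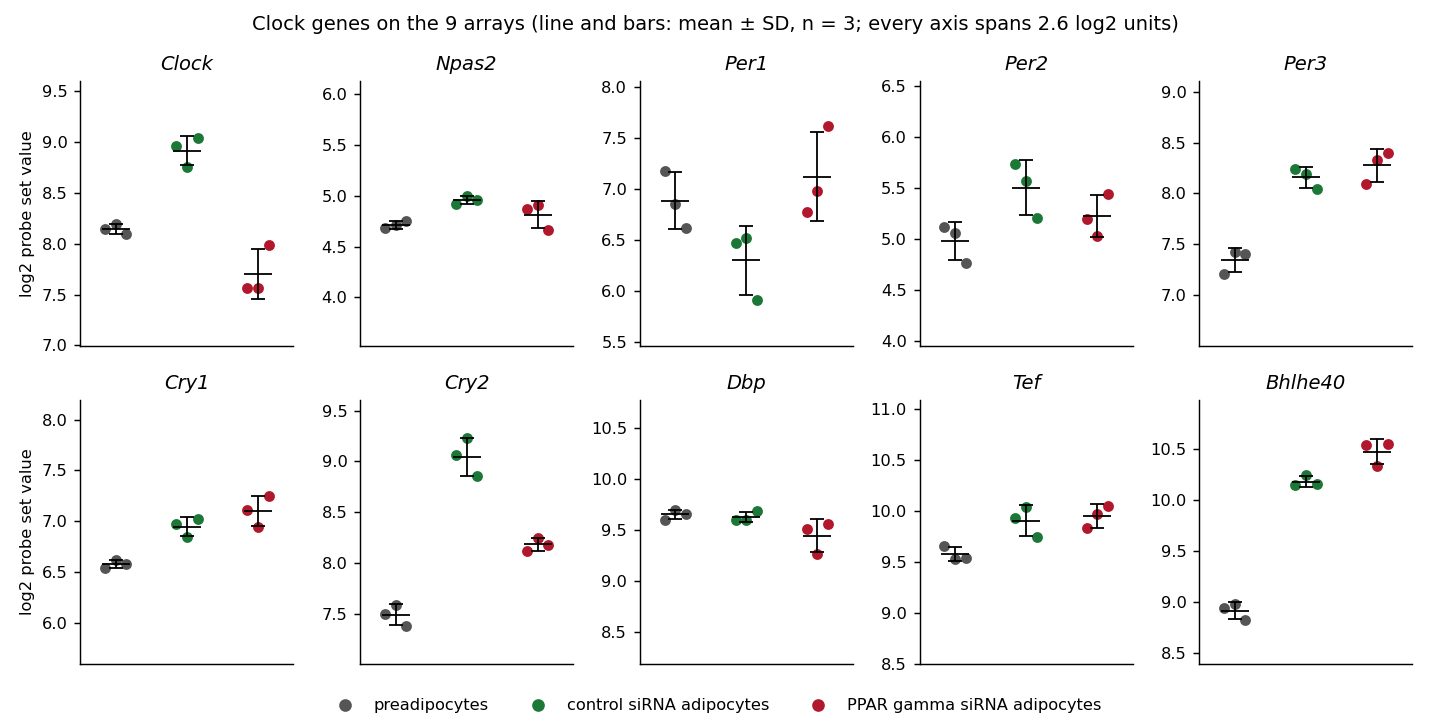
Log2 probe set values of the 10 clock genes on the 9 arrays, with 1 point per array in preadipocytes (grey), control siRNA adipocytes (green) and PPAR gamma siRNA adipocytes (red); horizontal lines and bars are the mean ± SD of 3 arrays. Clock and Cry2 peak in control siRNA adipocytes at means of 8.91 and 9.05, whereas Per3 and Bhlhe40 have their highest means, 8.28 and 10.47, with PPAR gamma siRNA.

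Clock and Npas2 encode the interchangeable activators of the loop. Clock stood at 8.14, 8.19 and 8.09 on the preadipocyte arrays, 8.95, 8.75 and 9.04 with control siRNA and 7.56, 7.56 and 7.99 with PPAR gamma siRNA. The groups did not overlap, with control siRNA highest and PPAR gamma siRNA lowest. Its change was 0.77 ± 0.12 in differentiation (± SE, adjusted p = 0.000267), -1.21 ± 0.12 under PPAR gamma siRNA (adjusted p = 1.34e-05) and -0.44 ± 0.12 between PPAR gamma siRNA and preadipocytes (adjusted p = 0.0186). The last call ended without preadipocytes 1 or 2 or PPAR gamma siRNA 1 or 2, where the change was -0.44 to -0.37 and the adjusted p 0.0543 to 0.0745. With the Actb 3' minus 5' difference as a covariate the rise in differentiation was 0.41 ± 0.17 (adjusted p = 0.0890), and the fall with the siRNA was -1.09 ± 0.11.

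The other Clock probe sets gave smaller changes. The next in brightness, 1418660_at, rose by 0.32 ± 0.12 in differentiation (adjusted p = 0.0442), and its change with PPAR gamma siRNA was -0.25 ± 0.12 (adjusted p = 0.156). Probe set 1435775_at had -0.09 ± 0.13 and -0.32 ± 0.13, and the dim 1439314_at had -0.28 ± 0.20 and -0.23 ± 0.20, none past the test. All 4 probe sets thus had a negative difference with the siRNA, but only the brightest passed. The mean over the 4 gave 0.18 in differentiation (adjusted p = 0.161) and -0.50 with the siRNA (adjusted p = 0.00217). The probe sets' positions on the transcript were not analysed here.

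Npas2 was close to the array median of signal. It stood at 4.68 to 4.75 in preadipocytes, 4.92 to 4.99 with control siRNA and 4.66 to 4.91 with PPAR gamma siRNA. Control siRNA arrays were above both other groups, and the other groups overlapped. The rise of 0.24 ± 0.09 in differentiation just passed (adjusted p = 0.0424), and the call ended when any 1 of the 6 arrays compared was left out (changes 0.22 to 0.26, adjusted p = 0.0591 to 0.115). It also ended with an intensity trend (adjusted p = 0.0781) and with a replicate block (adjusted p = 0.0621). A dimmer Npas2 probe set, at 2.99 to 3.79 over all arrays and so near the lowest signals, rose by 0.44 ± 0.12 (adjusted p = 0.0100). The change with the siRNA was -0.14, with a 95% interval of -0.34 to 0.05.

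Per1, Per2 and Per3 encode the period proteins, which join the cryptochromes to repress CLOCK and BMAL1. Per1 is also an early gene that glucocorticoids, cAMP and serum switch on in minutes to hours. Short stretches before the starts of Per1 and Per3 are shown because they hold the letters of motifs that clock factors are known to recognise. The E-box CACGTG is a motif of CLOCK with BMAL1, and the D-box TTANGTAA of DBP, TEF and NFIL3. They come from RefSeq windows of 250 bases before to 50 after a gene's start (GRCm38.p6), which matched 8 of the 10 genes in 12 windows; Per2 and Bhlhe40 are named only. Each stretch runs 5' to 3' along the gene's strand with the match in capitals.
Per1 (chr11:69098758-69098813, plus strand): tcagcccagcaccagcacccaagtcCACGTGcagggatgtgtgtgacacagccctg
Per3 (chr4:151044791-151044895, minus strand): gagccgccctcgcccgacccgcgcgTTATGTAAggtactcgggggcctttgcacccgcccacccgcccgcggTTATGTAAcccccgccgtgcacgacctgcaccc
The Per1 E-box begins 166 bases before that start. The Per3 stretch holds 2 D-boxes, which begin 205 and 158 bases before the start. Among all 32851 windows, 7.15% hold CACGTG and 2.32% hold TTANGTAA on either strand. The search also covered CACGTT (4.68% of windows), AGGTCA, the core of nuclear receptor sites (16.3%), and the cAMP response element TGACGTCA (1.79%), on both strands, and no matches overlapped in the clock genes' windows. AGGTCA was found in 1 of the Per1 windows and 1 of the Clock windows, and TGACGTCA in none of the 12. A match is a description of these letters and not of binding.

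Per1 was the only one of the 10 whose group mean was lowest in control siRNA adipocytes. It stood at 7.18, 6.86 and 6.62 in preadipocytes, 6.47, 6.52 and 5.91 with control siRNA and 6.78, 6.98 and 7.62 with PPAR gamma siRNA. All control siRNA arrays lay below all others, and the other groups overlapped. With the siRNA it rose by 0.82 ± 0.23 (adjusted p = 0.0168). The call ended without control siRNA 3, the lowest array (0.63, adjusted p = 0.0712), or PPAR gamma siRNA 3, the highest (0.58, adjusted p = 0.0604). The difference in differentiation was -0.59 ± 0.23 (adjusted p = 0.0553), and it passed under 8 of the 20 other settings run (adjusted p = 0.0103 to 0.274 over all of them), including without preadipocytes 3 (-0.72, adjusted p = 0.0446) and with the Actb difference as a covariate (-1.24, adjusted p = 0.0103). With renewed quantile normalisation it was -0.37 (adjusted p = 0.208). The spread of Per1 within groups was wide, with a pooled SD of 0.36 that exceeded that of 99.4% of genes. The median over all genes was 0.13.

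Per2 stood at 5.12, 5.06 and 4.77 in preadipocytes, 5.74, 5.57 and 5.21 with control siRNA and 5.20, 5.03 and 5.44 with PPAR gamma siRNA. Control siRNA was above preadipocytes on every array, and PPAR gamma siRNA overlapped both. The rise in differentiation was 0.52 ± 0.15 (adjusted p = 0.0154), and it did not pass without preadipocytes 3 or control siRNA 1 or 2 (0.40 to 0.49, adjusted p = 0.0518 to 0.0696). With the Actb difference as a covariate it was 0.13 (adjusted p = 0.689). The change with the siRNA was -0.28, with a 95% interval of -0.61 to 0.05. Of the other 2 probe sets, 1457350_at had 0.33 ± 0.14 in differentiation (adjusted p = 0.0743) and 1417603_at had 0.04 ± 0.14.

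Per3 stood at 7.21, 7.42 and 7.41 in preadipocytes, 8.24, 8.19 and 8.04 with control siRNA and 8.09, 8.33 and 8.40 with PPAR gamma siRNA. Every adipocyte array was above every preadipocyte array, and the adipocyte groups overlapped. It rose by 0.81 ± 0.11 in differentiation (adjusted p = 5.59e-05), and its difference between the siRNAs was 0.12, with a 95% interval of -0.12 to 0.35. Over preadipocytes, PPAR gamma siRNA adipocytes were higher by 0.93 ± 0.11 (adjusted p = 3.94e-05). Per3 had 5 further probe sets, all dimmer, and none passed in differentiation, with changes of -0.04 to 0.20. The brightest of these, 1460662_at, had -0.03 ± 0.15 in differentiation and 0.35 ± 0.15 between the siRNAs (adjusted p = 0.128). The mean over all 6 was 0.19 (adjusted p = 0.0920), so the rise of Per3 rests on 1 probe set. Between PPAR gamma siRNA and preadipocytes the other 5 had 0.07 to 0.31, none past the test, and the mean over all 6 was 0.31 (adjusted p = 0.0157).

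**Figure D2:**
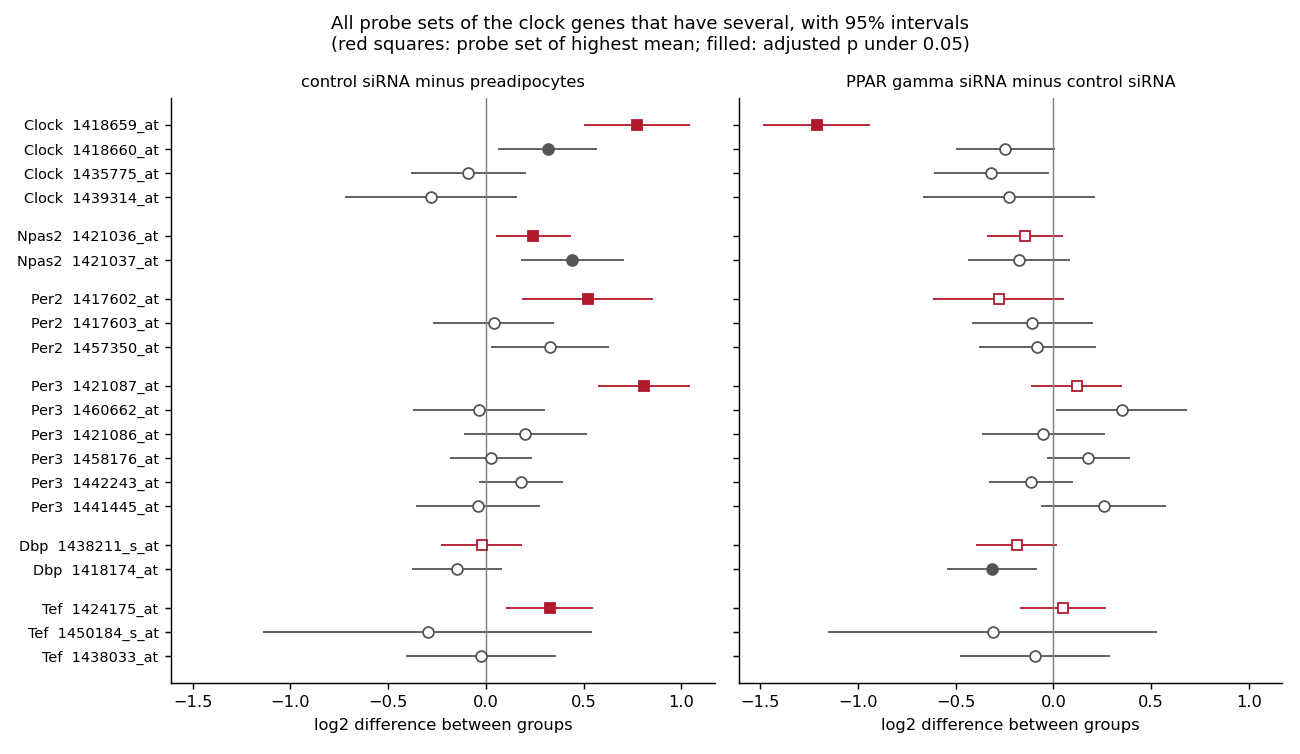
Log2 difference with its 95% interval for every probe set of the 6 clock genes that have more than 1, control siRNA minus preadipocytes on the left and PPAR gamma siRNA minus control siRNA on the right; red squares are the probe sets of highest mean and filled symbols passed at an adjusted p under 0.05. For Clock and Per3 the brightest probe set, at 0.77 and 0.81 in differentiation, lies apart from the dimmer ones.

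Cry1 and Cry2 encode the cryptochromes, the strongest repressors of the loop. Their promoter stretches hold an E-box or the variant CACGTT, read here as AACGTG on the strand shown. They are given to set these close relatives side by side. Cry2 passed the test with the siRNA and Cry1 did not, a difference that was itself not tested. Whether the letters bear on that difference was not tested either.
Cry1 (chr10:85185084-85185158, minus strand): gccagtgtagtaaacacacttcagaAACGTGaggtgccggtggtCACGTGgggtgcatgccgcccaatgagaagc
Cry2 (chr2:92434205-92434260, minus strand): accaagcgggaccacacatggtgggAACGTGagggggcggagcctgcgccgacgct
In Cry1 the variant begins 79 and the E-box 60 bases before the start. In Cry2 the variant begins 166 bases before the start, and CACGTG was not found in its window.

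Cry2 had the largest rise of the 10 genes in differentiation. It stood at 7.50, 7.59 and 7.38 in preadipocytes, 9.06, 9.23 and 8.85 with control siRNA and 8.12, 8.25 and 8.18 with PPAR gamma siRNA. The groups did not overlap, and PPAR gamma siRNA lay between the others. The rise was 1.56 ± 0.11 (adjusted p = 1.80e-07), the fall with the siRNA -0.86 ± 0.11 (adjusted p = 6.10e-05), and the remaining difference from preadipocytes 0.69 ± 0.11 (adjusted p = 0.000354). All 3 calls held under each of the 20 other settings run. Cry2 had 1 probe set.

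Cry1 stood at 6.54, 6.62 and 6.58 in preadipocytes, 6.98, 6.85 and 7.02 with control siRNA and 7.11, 6.95 and 7.25 with PPAR gamma siRNA. Preadipocytes were below all adipocyte arrays, and the adipocyte groups overlapped. It rose by 0.37 ± 0.10 in differentiation (adjusted p = 0.00816) and was 0.52 ± 0.10 above preadipocytes with PPAR gamma siRNA (adjusted p = 0.00131). The difference between the siRNAs was 0.15, with a 95% interval of -0.06 to 0.37. With the Actb difference as a covariate the rise in differentiation was 0.17 (adjusted p = 0.443), and with renewed quantile normalisation it was 0.59 (adjusted p = 0.000226).

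Bhlhe40 encodes DEC1, a repressor that competes for E-boxes and is also induced by low oxygen and other signals. It stood at 8.94, 8.98 and 8.82 in preadipocytes, 10.14, 10.24 and 10.15 with control siRNA and 10.54, 10.33 and 10.55 with PPAR gamma siRNA. The groups did not overlap and rose in that order. It was higher by 1.27 ± 0.09 in differentiation (adjusted p = 2.80e-07) and by 1.56 ± 0.09 with PPAR gamma siRNA over preadipocytes (adjusted p = 1.66e-07), and both calls held under all 20 other settings. The step of 0.29 ± 0.09 between the siRNAs was called (adjusted p = 0.0309). It lost its call without control siRNA 1 or 3 or PPAR gamma siRNA 1 or 3 (0.26 to 0.28, adjusted p = 0.0775 to 0.104), with a replicate block (adjusted p = 0.0587) and in a fit of the 2 groups alone (adjusted p = 0.0606).

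Dbp and Tef encode PAR bZIP factors, activators that bind D-boxes and pass the rhythm on to enzymes of metabolism. Dbp is among the strongest rhythmic genes of many tissues. The 2 Tef windows each hold an E-box, which begins 127 and 138 bases before its start, and none of the motifs searched was found in the Dbp window.
Tef, upstream start (chr15:81802521-81802576, plus strand): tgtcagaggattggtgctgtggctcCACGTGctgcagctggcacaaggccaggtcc
Tef, downstream start (chr15:81811251-81811306, plus strand): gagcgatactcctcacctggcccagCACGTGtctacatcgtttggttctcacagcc
These stretches are shown because they place the same E-box letters at both annotated starts of Tef.

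Dbp passed in no comparison at its brighter probe set, 1438211_s_at. It stood at 9.60, 9.70 and 9.66 in preadipocytes, 9.60, 9.60 and 9.69 with control siRNA and 9.51, 9.26 and 9.56 with PPAR gamma siRNA. PPAR gamma siRNA arrays were lowest, and the other groups overlapped. Its change was -0.02 ± 0.09 in differentiation, with a 95% interval of -0.23 to 0.19, and -0.19 ± 0.09 with the siRNA (adjusted p = 0.186). This probe set is of a type that can match more than 1 gene. The other Dbp probe set, 1418174_at, fell by 0.31 ± 0.10 with the siRNA (adjusted p = 0.0444) and by 0.46 ± 0.10 from preadipocytes to PPAR gamma siRNA (adjusted p = 0.00549), from 9.14, 9.07 and 8.86 to 8.44, 8.72 and 8.52.

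Tef stood at 9.66, 9.53 and 9.54 in preadipocytes, 9.93, 10.04 and 9.74 with control siRNA and 9.83, 9.97 and 10.05 with PPAR gamma siRNA. All adipocyte arrays were above all preadipocyte arrays. It rose by 0.33 ± 0.10 in differentiation (adjusted p = 0.0205), and its difference between the siRNAs was 0.05, with a 95% interval of -0.17 to 0.27. With PPAR gamma siRNA it was 0.37 ± 0.10 above preadipocytes (adjusted p = 0.0145). The differentiation call ended without preadipocytes 2 or 3 or control siRNA 1 or 2 (0.26 to 0.31, adjusted p = 0.0506 to 0.0797), and the other without preadipocytes 2 or 3 or PPAR gamma siRNA 3 (0.32 to 0.36, adjusted p = 0.0502 to 0.0583). With the Actb covariate the changes were 0.20 (adjusted p = 0.407) and 0.29 (adjusted p = 0.150), and without control siRNA 1 and PPAR gamma siRNA 3 the second was 0.32 (adjusted p = 0.0575).

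The mean of the 3 Tef probe sets was 0.0011 in differentiation (adjusted p = 0.994), and between PPAR gamma siRNA and preadipocytes it turned to -0.12 (adjusted p = 0.455). The other 2 probe sets had -0.03 ± 0.17 and -0.30 ± 0.38 in differentiation. The latter, 1450184_s_at, read 6.94 on control siRNA 1 and 6.39 on PPAR gamma siRNA 3, against 7.83 to 8.11 on the other 7 arrays. Those 2 arrays also had the highest Actb 3' minus 5' differences, at 1.3 and 1.25. A dim probe set of Nr1d2, 1416959_at, was likewise lowest on them, at 5.07 and 5.04. The part of RNA integrity in these readings was not tested.

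**Figure D3:**
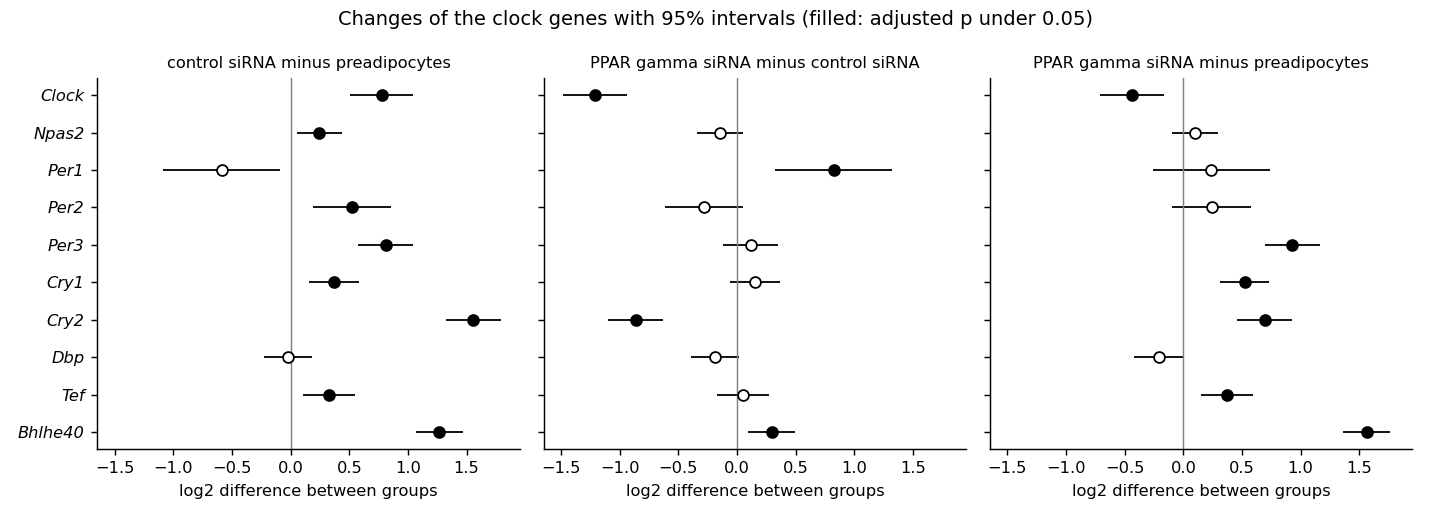
Log2 differences of the 10 clock genes with 95% intervals in the 3 comparisons; filled points passed at an adjusted p under 0.05. The siRNA comparison in the middle has Clock at -1.21 and Cry2 at -0.86 on the left, Per1 at 0.82 on the right, and the other 7 between -0.28 and 0.29.

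Among the other genes of the core loop, 11 were measured, and 4 rose and 1 fell in differentiation (median 0.19), beside 27.1% higher and 24.7% lower among all genes. Nfil3, a repressor that competes with DBP and TEF for D-boxes, rose by 1.44 ± 0.14 (adjusted p = 3.72e-06), and Rora, which activates Bmal1, by 1.25 ± 0.15 (adjusted p = 2.32e-05). Timeless, a replication fork protein with a debated part in the clock, fell by 0.87 ± 0.13 (adjusted p = 0.000147). With PPAR gamma siRNA 2 of the 11 rose and 3 fell (median -0.09), beside 19.9% and 16.1% of all genes. Timeless rose by 0.50 ± 0.13 (adjusted p = 0.0126; 0.0530 without control siRNA 3) and Nfil3 fell by 0.59 ± 0.14 (adjusted p = 0.00689). With probe sets averaged, the Timeless change was 0.19 (adjusted p = 0.341). Over preadipocytes, PPAR gamma siRNA adipocytes had 4 higher and 2 lower, beside 19.6% and 16.9% of all genes. Among these calls, Arntl2 (higher) and Timeless (lower) lost theirs under 12 and 10 of 20 other settings. Bhlhe41, Rorb and Hlf did not pass in any comparison.

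Arntl, which encodes BMAL1, stood at 6.93, 6.97 and 6.93 in preadipocytes, 7.96, 7.88 and 7.96 with control siRNA and 8.40, 8.17 and 8.35 with PPAR gamma siRNA. The groups did not overlap and rose in that order, as for Bhlhe40. Its change was 0.99 ± 0.09 in differentiation (adjusted p = 1.43e-06) and 0.37 ± 0.09 with the siRNA (adjusted p = 0.00568). A dimmer Arntl probe set, 1457740_at, also rose in differentiation (0.53 ± 0.08, adjusted p = 0.000226) but fell with the siRNA (-0.31 ± 0.08, adjusted p = 0.0132). The direction of Arntl between the siRNAs therefore depends on the probe set.

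Nr1d1, which encodes the Bmal1 repressor REV-ERB alpha, followed the order of Clock. It stood at 7.32, 7.05 and 6.92 in preadipocytes, 8.17, 7.98 and 7.60 with control siRNA and 6.90, 6.85 and 7.0 with PPAR gamma siRNA. Control siRNA was above the other groups, which overlapped. It rose by 0.82 ± 0.14 in differentiation (adjusted p = 0.000567) and fell by 1.00 ± 0.14 with the siRNA (adjusted p = 0.000207). Its relative Nr1d2 had -0.11 ± 0.10 in differentiation (adjusted p = 0.387) and fell by 0.35 ± 0.10 with the siRNA (adjusted p = 0.0189), a call that ended without control siRNA 2 or 3 or PPAR gamma siRNA 2 (-0.33 to -0.26, adjusted p = 0.0549 to 0.0787). With the Actb covariate the rise of Nr1d1 was 0.59 ± 0.24 (adjusted p = 0.0831).

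**Figure D4:**
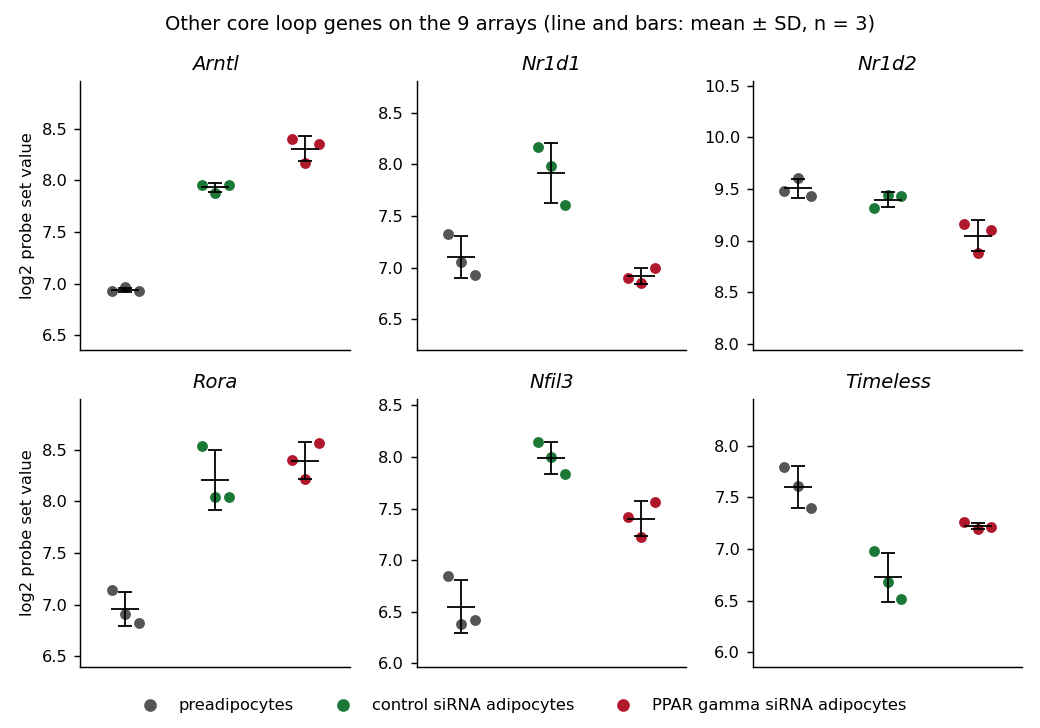
Log2 probe set values of 6 other core loop genes on the 9 arrays, drawn as for the clock genes above; lines and bars are the mean ± SD of 3 arrays. Nr1d1 falls from a mean of 7.92 with control siRNA to 6.91 with PPAR gamma siRNA, near the 7.10 of preadipocytes, and Arntl goes from 7.93 to 8.31.

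Clock proteins are marked for activity or decay by kinases, ubiquitin ligases and a deacetylase. Of these genes 11 were measured. Of the 11, 1 rose and 3 fell in differentiation (median -0.03), beside 27.1% and 24.7% of all genes, and 3 rose and 2 fell with PPAR gamma siRNA (median 0.11), beside 19.9% and 16.1%. Prkaa2, a catalytic subunit of the energy sensor AMPK, rose by 1.44 ± 0.10 in differentiation (adjusted p = 2.10e-07), and Btrc, a ligase for PER proteins, fell by 0.74 ± 0.11 (adjusted p = 0.000187). With the siRNA, Csnk2a1, a subunit of casein kinase 2, fell by 0.84 ± 0.09 (adjusted p = 2.56e-05) and Prkaa1 by 0.51 ± 0.14 (adjusted p = 0.0179). The kinase Gsk3b rose by 0.48 ± 0.10 (adjusted p = 0.00265). The Prkaa1 call ended without control siRNA 3 (-0.36, adjusted p = 0.0660) or PPAR gamma siRNA 2 (-0.46, adjusted p = 0.0679).

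Genes known as outputs of the clock were also listed. Of 6 measured, 4 rose and 2 fell in differentiation (median 1.55), beside 27.1% and 24.7% of all genes, and 1 rose and 3 fell with PPAR gamma siRNA (median -0.16), beside 19.9% and 16.1%. The fall of Nampt, an enzyme of NAD synthesis, lost its call under 9 of 20 other settings, among them without control siRNA 2 or 3 or any 1 PPAR gamma siRNA array (-0.33 to -0.24, adjusted p = 0.0513 to 0.103). Noct, the rhythmic gene nocturnin, went from 6.55 ± 0.16 in preadipocytes to 10.79 ± 0.04 with control siRNA and 7.34 ± 0.23 with PPAR gamma siRNA. Its changes were 4.24 ± 0.12 (adjusted p = 1.47e-10) and -3.44 ± 0.12 (adjusted p = 3.87e-09), both beyond those of any of the 10 clock genes. Alas1, the rate-limiting enzyme of haem synthesis, rose by 2.81 ± 0.08 and fell by 1.53 ± 0.08 with the siRNA (adjusted p = 1.07e-10 and 5.40e-08). Cdkn1a, the cell cycle inhibitor p21, fell by 0.79 ± 0.15 in differentiation and was raised by 0.49 ± 0.15 under the siRNA (adjusted p = 0.00109 and 0.0316). The latter call ended without control siRNA 3 or PPAR gamma siRNA 2 or 3 (0.28 to 0.49, adjusted p = 0.0665 to 0.106).

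Per1, as an early gene, was set beside lists of genes that answer to glucocorticoids and to cAMP or serum. Of 9 glucocorticoid responsive genes, 6 rose and 2 fell with PPAR gamma siRNA (median 0.64), beside 19.9% and 16.1% of all genes. The kinase Sgk1 rose by 2.07 ± 0.10 (adjusted p = 4.98e-08) and the chaperone cofactor Fkbp5 by 1.68 ± 0.11 (adjusted p = 3.75e-07), while the phosphatase Dusp1 fell by 0.48 ± 0.09 (adjusted p = 0.00194) and the transcription factor Zbtb16 by 0.44 ± 0.15 (adjusted p = 0.0463). Of these called genes Zbtb16, Tsc22d3 and Mt2 lost their calls under 10, 8 and 7 of 20 other settings. For Zbtb16 these included leaving out preadipocytes 1, control siRNA 1 or 2 or PPAR gamma siRNA 1 or 2 (-0.49 to -0.30, adjusted p = 0.0651 to 0.165). Of 9 cAMP and serum early genes, 5 rose and 1 fell (median 0.78), beside the same shares of all genes. Egr1 rose by 1.90 ± 0.15 (adjusted p = 1.54e-06) and Fos by 1.73 ± 0.18 (adjusted p = 1.29e-05). Crem, a transcription factor of the cAMP pathway, fell by 0.53 ± 0.12 (adjusted p = 0.00593). In differentiation the same lists went both ways, with 5 higher and 3 lower glucocorticoid genes and 3 higher and 3 lower early genes. Of all genes, 27.1% were higher and 24.7% lower in that comparison. Sgk1 fell by 2.53 ± 0.10 and Egr1 2.30-fold there, while Zbtb16 rose by 2.95 ± 0.15 and Fos by 1.24 ± 0.18. Of the rising genes named here, Fos and Egr1 were highest on PPAR gamma siRNA 2, at 9.78 and 12.33. Sgk1 and Fkbp5 were highest on PPAR gamma siRNA 3, at 10.21 and 10.46, as was Per1. Both adipocyte groups were detached and electroporated, and the part of that handling in these values was not tested.

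**Figure D5:**
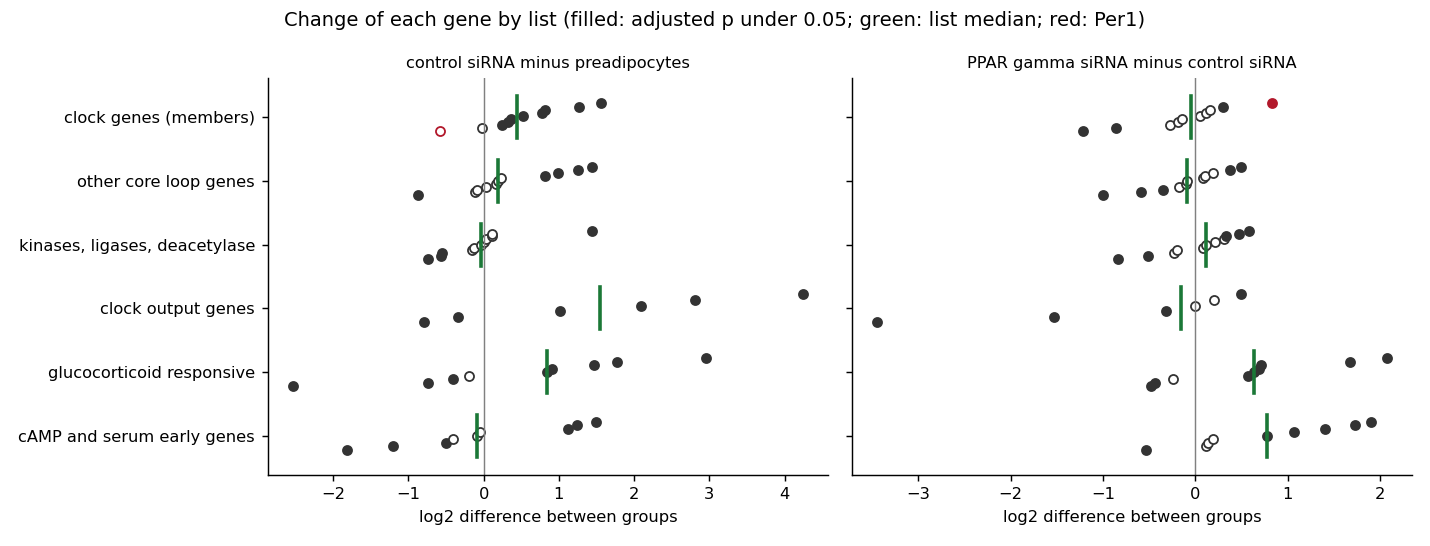
Log2 difference of every measured gene by list, control siRNA minus preadipocytes on the left and PPAR gamma siRNA minus control siRNA on the right; filled points passed at an adjusted p under 0.05, green bars are list medians and Per1 is red. With the siRNA the early gene list has a median of 0.78 and the clock genes one of -0.05, and Per1 lies at 0.82.

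For the 3 clock genes whose group means spanned at least 1 log2 unit, the most similar genes were sought over the 9 arrays by the root mean square difference between centred profiles, among 18192 other genes. Rrs1, a ribosome assembly factor, was closest to Clock (0.08), with means of 9.29, 10.07 and 8.91 in preadipocytes, control siRNA and PPAR gamma siRNA, followed by Selenoi (0.09). Nrbf2, an autophagy factor, was closest to Cry2 (0.08), with means of 9.12, 10.74 and 9.76, followed by Gpr146 (0.09). Txnip, an inhibitor of thioredoxin that responds to glucose, was closest to Bhlhe40 (0.09), with means of 10.77, 11.94 and 12.20, followed by 1700007L15Rik (0.10).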

How the data were processed

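Each array had 1 deposited column of log2 signals per probe set, whose scale and near-equal medians were read from the values. The submitters' processing notes name MAS5, RMA and affy 1.16.0 with no role or order. How background was corrected was not given in the sources used here. Of all probe sets, 64 controls were left out, and the other 45037 were tested with no further scaling. Platform annotation gave 34945 probe sets 1 symbol and 932 several. Groups came from sample titles. With limma 3.58.1 in R 4.3.3, 1 linear model of the 9 arrays gave 3 two-sided comparisons with moderated variances. P-values were adjusted (Benjamini-Hochberg) over all 45037 probe sets, and a gene was called under 0.05. The fit was tested on simulated data with planted changes larger than any of the clock genes. That test does not cover changes of their size. The number of arrays limits the precision.

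The members and lists were chosen with earlier results of these data known. All 10 members are named, Pparg as the siRNA target, Arntl, Nr1d1 and Nr1d2 always, and of each other list up to 2 rising and 2 falling genes per comparison; further genes named were chosen after their values were seen. List genes without a value in these tables were not analysed here. Alternatives were renewed quantile normalisation, centring on medians, omission of dim probe sets or of types x and s, fits of 2 groups, an intensity trend with robust variances, means over probe sets, a replicate block, a test against 1.2-fold, the Actb difference as a covariate, and omission of arrays.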

Additional observations from a re-analysis of the deposited data

How the results depend on the processing

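Of the 30 changes tested in the 10 clock genes, 18 were called. Of these, 7 kept their call under each of the 20 other settings. They included Cry2 in all 3 comparisons and Bhlhe40 against preadipocytes in both adipocyte groups. The others were Clock with the siRNA and Per3 between PPAR gamma siRNA and preadipocytes. With probe sets averaged, these Clock and Per3 changes were -0.50 and 0.31, and for each only the brightest probe set passed on its own. The number called in differentiation, 8, became 5 with each gene's probe sets averaged, 4 against a 1.2-fold change and 5 with the Actb covariate, where Per1 was called lower, and 5 to 9 when 1 array was left out. With the siRNA, 4 became 2 against a 1.2-fold change, 2 without control siRNA 1 and PPAR gamma siRNA 3, and 2 to 4 when 1 array was left out (2 without control siRNA 3 or PPAR gamma siRNA 3). The count of 6 between PPAR gamma siRNA and preadipocytes was 3 against a 1.2-fold change. Over all genes, 9427, 6534 and 6632 calls became 6137, 3857 and 3564 against 1.2-fold. With a replicate block 7, 3 and 6 clock genes were called, and only Npas2 in differentiation and Bhlhe40 with the siRNA lost their calls. The check of pairing found same-numbered arrays no more alike than others (correlations -0.19 to 0.17 against -0.22 to 0.29). Of 120 called changes of genes on the other lists, 87 kept their call under every setting, and 1, Nampt with the siRNA, turned its sign (0.07 with probe sets averaged).

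Changes of the clock genes that turned their sign were not called in the setting that turned them. That of Tef between PPAR gamma siRNA and preadipocytes had been called in the fit reported above (0.37, adjusted p = 0.0145). Tef read -0.12 with the siRNA and -0.12 against preadipocytes with the mean of probe sets, and with the siRNA -0.0327 to 0.12 when 1 array was left out. Between PPAR gamma siRNA and preadipocytes, Per1 read -0.19 with the Actb covariate, -0.0091 without control siRNA 1 and PPAR gamma siRNA 3, and -0.0091 to 0.41 when 1 array was left out, and Per2 -0.0125 with the covariate. Dbp in differentiation read -0.0505 to 0.0005 when 1 array was left out. The causes were not tested.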
